A study of Mus musculus with 10 samples.

Results

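The germinal center B cell genes described here are S1pr2, Mybl1, Gcsam, Rgs13, Mef2b, Fas and Bcl6, 7 of the 54532 genes in the deposited expression table, and they were chosen by name as genes that mark or control germinal center B cells. All 7 were expressed above the minimum used for testing. They were compared in spleens of 5 DUSP6 KO (Dusp6tm1Jmol) and 5 WT mice, which had KRN serum-induced arthritis (KSIA) and were sampled at the arthritis peak, day 9. All mice received 100 µL of pooled serum from arthritic KRN x NOD F1 mice on days 0 and 2, so the antibodies that start the disease came from the serum. The sample labels call the mutant a knockdown, while the study calls it a knockout (KO). The deletion was present in the whole animal. Mice were 8 to 12 weeks old, and each spleen gave 1 library. In every library the Y-linked gene Ddx3y had at least 1098 reads and Xist at most 8, as in male mice. Mice are named by the numbers on their labels, DUSP6 KO 26, 21, 73, 01 and 03 and WT 65, 67, 73, 77 and 83.

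Germinal centers form in B cell follicles when activated B cells divide, mutate their antibody genes and are selected with help from T follicular helper cells. BCL6, a transcriptional repressor, holds B cells in this state, and MEF2B is a transcription factor that activates its gene. S1PR2, a receptor coupled to G alpha 13, keeps the cells inside the germinal center. FAS, a death receptor, is used as a surface marker of these cells. Several of these genes are also active elsewhere: BCL6 in T follicular helper cells, FAS in activated T cells, and S1PR2 and RGS13 in mast cells.

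The libraries held 14990474 to 19822673 reads, and Dusp6 itself was at 0.308 to 0.624 FPKM (read fragments scaled to the length of the gene and the size of the library) in the DUSP6 KO spleens and at 16.6 to 24.0 FPKM in the WT spleens. B cell markers such as Ms4a1 (42.6 to 104.2 FPKM) and T cell markers such as Cd3e (6.34 to 15.1 FPKM) were present in every library, as in spleen. Exocrine pancreas RNA stood apart in 2 WT libraries: the 6 pancreas genes examined took 1.45% of the reads in WT 67 and 0.0188% in WT 65, against at most 5.3e-05% in the other 8 libraries. Erythroid and proliferation genes also differed widely between mice of the same genotype, with Mki67 between 25.7 and 192 FPKM. The directions and list medians that changed when WT 65 and WT 67 were left out, and the correlations among the members, are given both ways. The levels, the spread and the genes most like each member are given for all 10 libraries. The part of the pancreas RNA in these changes was not tested.

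Promoter sequence is shown for S1pr2, Rgs13 and Mef2b, because these genes varied together between spleens, as described later on. Mybl1, the other gene of this group, has no window in the table used. Each run holds the 250 bases before the RefSeq start site on GRCm38.p6, 5′ to 3′ on the strand of the gene, at chr9:20976794-20977043 (minus strand) for S1pr2, chr1:144177373-144177622 (minus strand) for Rgs13 and chr8:70152511-70152760 (plus strand) for Mef2b. Capitals mark matches to the motifs searched.
S1pr2: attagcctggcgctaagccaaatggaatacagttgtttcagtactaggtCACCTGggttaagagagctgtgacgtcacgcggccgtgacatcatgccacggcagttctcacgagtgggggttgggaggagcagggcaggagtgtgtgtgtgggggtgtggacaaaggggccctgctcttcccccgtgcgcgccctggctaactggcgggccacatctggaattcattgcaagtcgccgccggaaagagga
Rgs13: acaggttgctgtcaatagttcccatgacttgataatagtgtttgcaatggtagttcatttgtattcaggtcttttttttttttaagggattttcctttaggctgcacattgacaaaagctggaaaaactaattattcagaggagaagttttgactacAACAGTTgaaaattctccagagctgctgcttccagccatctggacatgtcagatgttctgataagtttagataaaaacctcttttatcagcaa
Mef2b: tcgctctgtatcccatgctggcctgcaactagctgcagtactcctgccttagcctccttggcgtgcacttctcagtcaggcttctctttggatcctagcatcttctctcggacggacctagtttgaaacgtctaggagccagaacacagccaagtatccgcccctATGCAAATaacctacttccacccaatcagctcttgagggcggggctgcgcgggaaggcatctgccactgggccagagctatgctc
The capitals are an E2A-type E-box (CAGGTG, here on the other strand) 201 bases before the S1pr2 start, a MYB core (AACNGTT) 93 bases before the Rgs13 start, and an octamer (ATGCAAAT) 85 bases before the Mef2b start. Searched on both strands, the octamer was present in 1.74% of all 32851 windows of 300 bases (250 before to 50 after the start), the MYB core in 4.45% and the E-box in 20.2%. Mef2b also had an E-box, in the 50 bases after its start that are not printed. The MEF2 core (in 3.69% of all windows) and the TATA box (TATAAA, in 13.6%) matched none of the 7 windows of the 6 members that have one. The BCL6 core (TTCCTNGAA, in 1.59%) matched only the downstream one of the 2 Bcl6 windows. The RefSeq start of Mef2b lies inside the longer gene span given in the deposited table.

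By level per length, as FPKM over all 10 spleens (mean ± SD, n = 10), the 7 genes ranged from Bcl6 at 8.33 ± 1.97, through Fas at 5.81 ± 0.93, Gcsam at 4.47 ± 1.59, Mef2b at 3.28 ± 2.24 and S1pr2 at 1.51 ± 0.60, to Mybl1 at 1.37 ± 0.92 and Rgs13 at 1.33 ± 0.85. Neighbors in this order were compared within each spleen on log2(FPKM + 0.1) by sign-flip permutation tests, adjusted over the 6 pairs of neighbors. Bcl6 was above Fas in 10 of 10 spleens (adjusted p = 0.006) and Mef2b above S1pr2 in 10 of 10 (adjusted p = 0.006). Fas was above Gcsam in 8 of 10 spleens (adjusted p = 0.016). Gcsam and Mef2b (adjusted p = 0.068), S1pr2 and Mybl1 (0.13), and Mybl1 and Rgs13 (0.66) did not differ beyond their spread.

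Between genotypes, none of the 7 genes passed the test. In the limma fit on log2(FPKM + 0.1) over the 21296 genes tested, 0 of 7 had an adjusted p of 0.05 or less, a level reached by 0.0704% of all genes (0.0329% lower and 0.0376% higher in DUSP6 KO), and 0 of 7 had an unadjusted p under 0.05, which 5.66% of all genes had. Limma voom on recovered reads also gave 0 of 7 at either threshold. The DUSP6 KO and WT values overlapped for every member, while 1.11% of all genes had no overlap. Mean log2 values were higher in DUSP6 KO for 4 members and lower for 3, while 51% of all genes were lower, and the median of the log2 fold changes was 0.085, against −0.0046 over all genes tested. With array weights on all 10 libraries, S1pr2, Mybl1 and Rgs13 turned lower in DUSP6 KO. All 4 higher means turned lower when WT 65 and WT 67 were left out. All 7 members then had a lower mean in DUSP6 KO, while 50.6% of all genes were lower. The member median was −0.29, against −0.0028 over all genes. Only 3 WT spleens remained, among them WT 73, the highest spleen by mean rank over the members (1.29, with 1 the highest). The 4 members that turned also varied together, as described later. The 7 differences then ran from −0.79 for Gcsam, through −0.45 for Mybl1, −0.29 for Rgs13 and Fas, −0.22 for Bcl6 and −0.15 for Mef2b, to −0.10 for S1pr2. Still 0 of 7 had an adjusted limma p of 0.05 or less, and 1, Gcsam, had an unadjusted p under 0.05 (5.66% of all genes in the fit on all 10 libraries). WT 65 and WT 67 were left out after the data were seen, and they had the lowest Gcsam values of the WT spleens. On all 10 libraries the widest 95% intervals were those of Rgs13 (0.467-fold to 2.78-fold), Mef2b (0.529-fold to 2.96-fold) and Mybl1 (0.514-fold to 2.53-fold). Differences within the interval of each gene were not excluded.

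**Figure D1:**
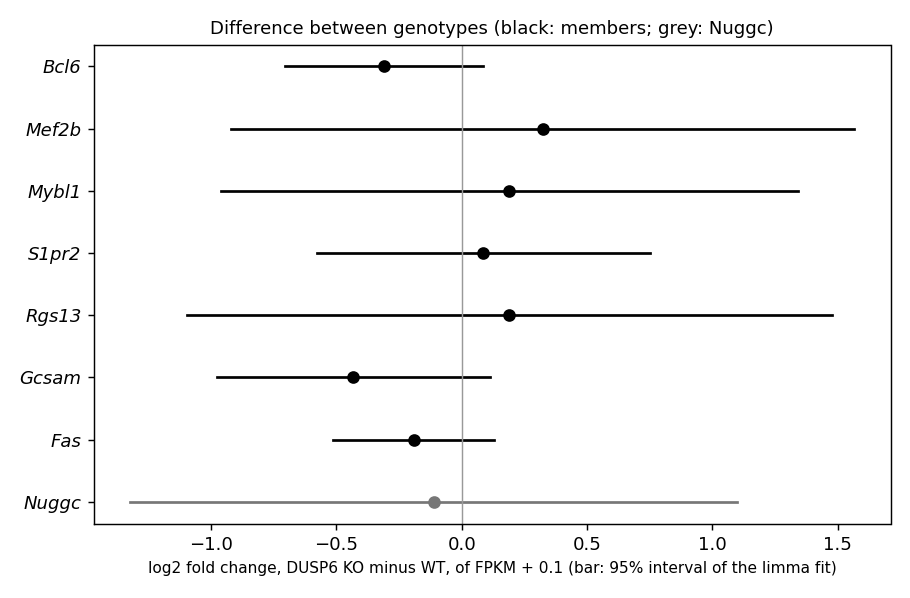
Log2 fold change (DUSP6 KO minus WT, of FPKM + 0.1) of the 7 members (black) and of Nuggc (gray), with the 95% interval of the limma fit on 5 against 5 spleens. Every interval crosses 0, and those of Bcl6, Gcsam and Fas are narrower than those of Mef2b, Mybl1 and Rgs13.

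Bcl6 (ENSMUSG00000022508, chromosome 16, 23965052 to 23988852, minus strand) was at 8.23, 9.80, 6.32, 6.06 and 6.66 FPKM in DUSP6 KO 26, 21, 73, 01 and 03, and at 8.57, 11.5, 11.1, 6.63 and 8.40 FPKM in WT 65, 67, 73, 77 and 83. The highest spleens were WT 67 and WT 73, and the groups overlapped across most of their range. Bcl6 was at 7.41 ± 1.58 FPKM in DUSP6 KO against 9.25 ± 2.04 FPKM in WT (n = 5 each, ± SD), giving a log2 fold change of −0.31 (95% interval −0.70 to 0.083, limma adjusted p = 0.94). In 20 of the 25 pairs of a DUSP6 KO with a WT spleen the DUSP6 KO value was the lower one (two-sided exact permutation test, p = 0.16, where 0.0079 is the smallest that 5 against 5 allow). The most deeply counted member, with 620 to 1477 reads per library, it had a within-group SD of 0.307 on the log2 scale, against a median of 0.234 over the 13422 genes that averaged 1 FPKM or more.

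Mef2b (ENSMUSG00000079033, chromosome 8, 70139711 to 70167488, plus strand) was at 1.18, 5.90, 3.45, 1.41 and 6.70 FPKM in DUSP6 KO 26, 21, 73, 01 and 03, and at 1.29, 1.53, 6.4, 3.13 and 1.83 FPKM in WT 65, 67, 73, 77 and 83. Both genotypes thus had spleens near 1 FPKM and spleens near 6 FPKM. The means were 3.73 ± 2.52 FPKM in DUSP6 KO against 2.84 ± 2.12 FPKM in WT (n = 5 each, ± SD), giving a log2 fold change of 0.32 (95% interval −0.92 to 1.57, limma adjusted p = 0.99, exact permutation p = 0.65), and genotype took up 3.09% of its variance on the log2 scale. Its reads, 31 to 161 per library, could include reads of Borcs8, a gene on the same strand that shares 7609 bases of its span. Borcs8 varied little, between 13.4 and 18.3 FPKM, with little relation to Mef2b over the 10 spleens (Pearson's r = 0.15, Spearman's rho = 0.030).

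Mybl1 (ENSMUSG00000025912, chromosome 1, 9667415 to 9700209, minus strand) encodes the transcription factor A-MYB. It was at 0.685, 2.04, 1.66, 0.820 and 1.44 FPKM in DUSP6 KO 26, 21, 73, 01 and 03, and at 0.660, 0.368, 3.43, 1.79 and 0.806 FPKM in WT 65, 67, 73, 77 and 83. WT 73 held the highest and WT 67 the lowest value, 9.32-fold apart (320 and 38 reads), and the DUSP6 KO spleens lay between them. Over genotypes the log2 fold change was 0.19 (95% interval −0.96 to 1.34, limma adjusted p = 0.99, exact permutation p = 0.77).

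S1pr2 (ENSMUSG00000043895, chromosome 9, 20962361 to 20976781, minus strand) was at 1.11, 2.23, 1.29, 1.15 and 1.87 FPKM in DUSP6 KO 26, 21, 73, 01 and 03, and at 1.12, 1.13, 2.76, 1.55 and 0.910 FPKM in WT 65, 67, 73, 77 and 83. WT 73, DUSP6 KO 21 and DUSP6 KO 03 were again the high spleens. The genotype means, 1.53 ± 0.49 FPKM in DUSP6 KO against 1.49 ± 0.75 FPKM in WT (SD, n = 5 each), differed by a log2 fold change of 0.085 (95% interval −0.58 to 0.75, limma adjusted p = 0.99, exact permutation p = 0.83).

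Rgs13 (ENSMUSG00000051079, chromosome 1, 144138654 to 144177372, minus strand) encodes a regulator of G protein signaling that dampens chemokine receptor responses. It was at 0.680, 1.90, 1.36, 0.502 and 2.29 FPKM in DUSP6 KO 26, 21, 73, 01 and 03, and at 1.31, 0.222, 2.94, 1.31 and 0.775 FPKM in WT 65, 67, 73, 77 and 83. The widest spread among the members was that of Rgs13, 13.3-fold between WT 67 and WT 73, and it was also the member with the fewest reads, 7 in WT 67 and 84 in WT 73. The log2 fold change of 0.19 had a 95% interval from −1.10 to 1.48 (limma adjusted p = 0.99, exact permutation p = 0.77).

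Gcsam (ENSMUSG00000022659, chromosome 16, 45610380 to 45622867, plus strand) encodes an adaptor in B cell receptor signaling and cell motility. It was at 3.38, 5.33, 3.51, 3.37 and 3.01 FPKM in DUSP6 KO 26, 21, 73, 01 and 03, and at 3.57, 3.20, 7.40, 6.66 and 5.28 FPKM in WT 65, 67, 73, 77 and 83. All DUSP6 KO spleens but DUSP6 KO 21 were near 3 FPKM, and so were WT 65 and WT 67, while the other 3 WT spleens were near or above 5 FPKM. The log2 fold change was −0.43 (95% interval −0.98 to 0.11, limma adjusted p = 0.94, exact permutation p = 0.15). WT 65 and WT 67, the libraries with pancreas RNA, had the lowest Gcsam values of the WT spleens. When they were left out, a choice made after the data were seen, the log2 fold change was −0.79 (limma adjusted p = 0.62). The DUSP6 KO value was then the lower one in 14 of 15 pairs (exact permutation p = 0.036). The smallest p that 5 against 3 allow is 0.018, and no adjustment was made for the 7 members tested. Relative to the mean of the B cell genes described later, the difference without these libraries was −0.75 (exact permutation p = 0.071). Because this choice removed the lowest WT values, the p-values without these libraries cannot serve as tests of genotype for Gcsam.

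Fas (ENSMUSG00000024778, chromosome 19, 34290659 to 34327770, plus strand) was at 6.31, 6.65, 4.40, 4.13 and 5.82 FPKM in DUSP6 KO 26, 21, 73, 01 and 03, and at 5.33, 5.82, 6.79, 6.45 and 6.44 FPKM in WT 65, 67, 73, 77 and 83. DUSP6 KO 73 and DUSP6 KO 01 were below every WT spleen, and the other 3 DUSP6 KO spleens were within the WT range. Fas was the steadiest member, 1.65-fold between lowest and highest, with a log2 fold change of −0.19 (95% interval −0.51 to 0.13, limma adjusted p = 0.97, exact permutation p = 0.27).

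**Figure D2:**
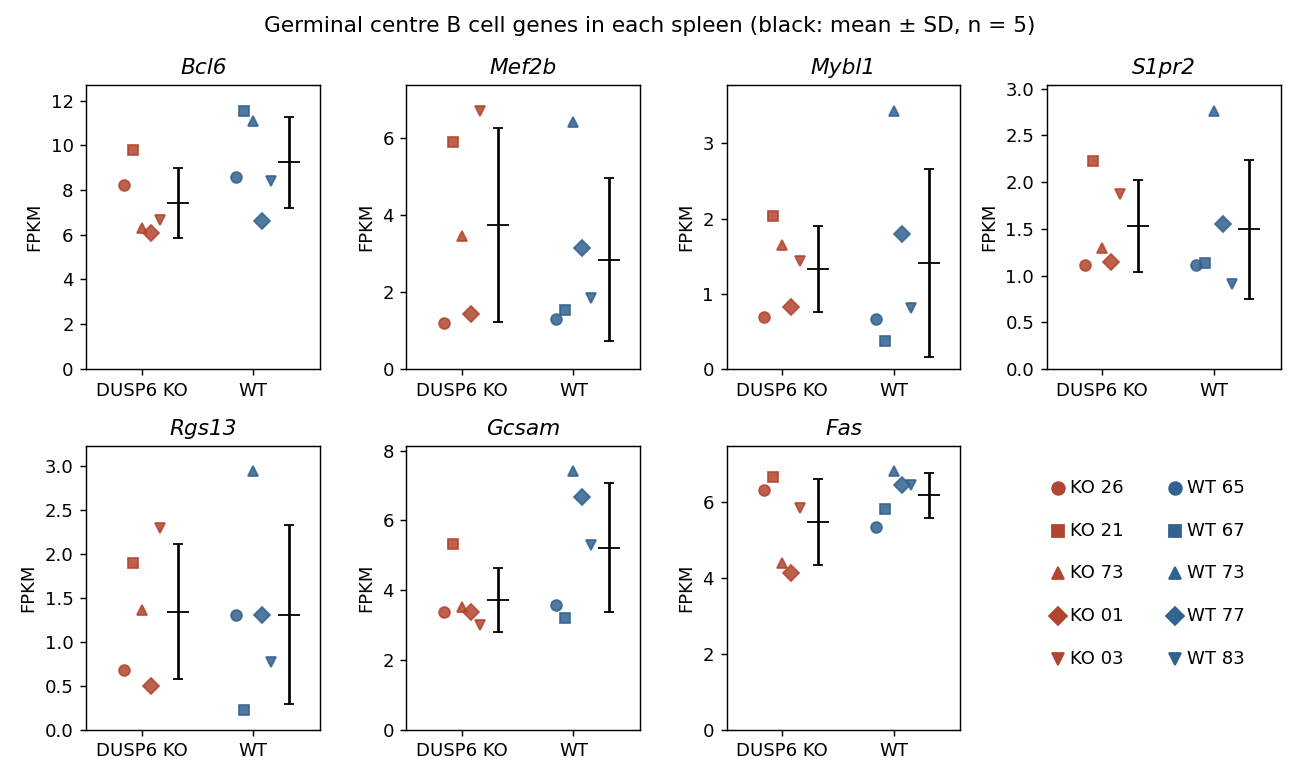
FPKM of each member in each spleen (red: DUSP6 KO, blue: WT, a symbol for each mouse, black bar: mean ± SD, n = 5), on linear axes from 0. WT 73 is the highest WT spleen for every member but Bcl6, and DUSP6 KO 21 is among the 3 highest of all spleens for all 7.

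The spread between mice of the same genotype was large for 4 members. The within-group SD on the log2 scale was 1.04 for Rgs13, 1.01 for Mef2b, 0.924 for Mybl1 and 0.512 for S1pr2, at percentiles 95.2, 95, 94.1 and 84.6 of the 13422 genes averaging 1 FPKM or more. Gcsam (0.431, percentile 80.0), Bcl6 (0.307, percentile 65.7) and Fas (0.238, percentile 51.2) varied less. Genotype took up at most 3.09% of the variance of the first 4 genes, and 16.9% to 24.3% of that of Fas, Gcsam and Bcl6. Any split into groups this small takes up some variance without an effect. The exact permutation p-values between genotypes were 0.27 for Fas, 0.15 for Gcsam and 0.16 for Bcl6. In bulk RNA, fewer cells of a type and less RNA per cell cannot be told apart.

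The 4 most variable members rose and fell together from spleen to spleen. WT 73, DUSP6 KO 21 and DUSP6 KO 03 were 3 of the 5 highest spleens for each of them, and DUSP6 KO 26 and WT 65 had low values of S1pr2, Mybl1 and Mef2b. Of the 21 pairs of members, 6 had an adjusted p under 0.05 for Pearson's r (permutation test, n = 10 spleens, adjusted over the 21 pairs), and these were the 6 pairs among S1pr2, Mybl1, Rgs13 and Mef2b. Their r was between 0.77 and 0.89 (adjusted p between 0.0091 and 0.03) and Spearman's rho between 0.76 and 0.84, with 5 of the 6 pairs under 0.05 after adjustment by rho (Mybl1 with Mef2b at 0.052). The highest was that of S1pr2 with Mef2b (r = 0.89, p = 0.00064, adjusted p = 0.0091, rho = 0.82, p = 0.0055, adjusted p = 0.035). After the 2 spleens farthest from the median of the first gene were left out, r stayed between 0.64 and 0.89 for the 6 pairs. With the genotype means removed, r was between 0.77 and 0.89, and without WT 65 and WT 67 it was between 0.865 and 0.967. This held in each genotype taken alone, with r between 0.815 and 0.972 over the 5 DUSP6 KO spleens and between 0.714 and 0.945 over the 5 WT spleens, too few for a test. These 4 genes were grouped after the correlations were seen.

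No pair with Gcsam, Fas or Bcl6 had an adjusted p under 0.05. The r of Gcsam with the 4 genes was between 0.44 and 0.68 (adjusted p between 0.1 and 0.37), and between −0.061 and 0.42 without the 2 farthest spleens. With the genotype means removed it was between 0.61 and 0.85, highest with Mybl1, and it was between 0.269 and 0.578 within DUSP6 KO, between 0.692 and 0.939 within WT, and between 0.33 and 0.62 without WT 65 and WT 67. Bcl6, the regulator of the germinal center state, had an r of 0.26 with S1pr2, 0.049 with Mef2b, −0.068 with Mybl1 and −0.073 with Rgs13. Once WT 65 and WT 67 were left out, these were 0.53, 0.34, 0.45 and 0.46, so that the values near 0 rested on those libraries. Fas and Bcl6 had an r of 0.61 (adjusted p = 0.14). All of these correlations share the libraries, their depth and their make-up of cell types.

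**Figure D3:**
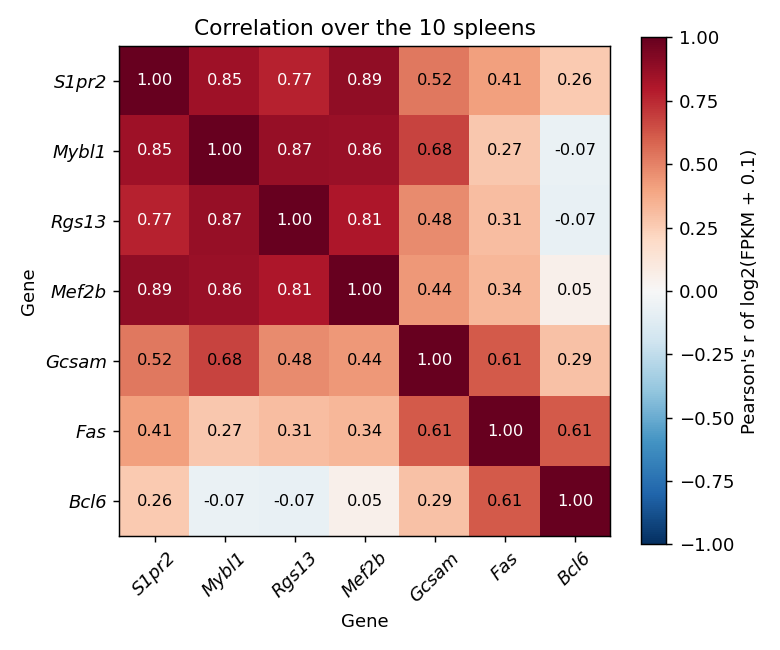
Pearson's r of log2(FPKM + 0.1) over the 10 spleens for each pair of members. The 6 cells among S1pr2, Mybl1, Rgs13 and Mef2b lie between 0.77 and 0.89, and those of Bcl6 with these 4 genes lie between −0.073 and 0.26 (between 0.34 and 0.53 without WT 65 and WT 67, not drawn).

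Nuggc, a nuclear GTPase gene of germinal center B cells, is not a member but varied with the same 4 genes, and it is described in full because of that, after its values were seen. It was at 0.661, 1.54, 2.00, 0.537 and 1.74 FPKM in DUSP6 KO 26, 21, 73, 01 and 03, and at 0.454, 0.887, 4.44, 1.59 and 0.984 FPKM in WT 65, 67, 73, 77 and 83. WT 73 was far above the other spleens, and DUSP6 KO 26, DUSP6 KO 01 and WT 65 were the lowest. Between genotypes its log2 fold change was −0.11 (95% interval −1.32 to 1.1, limma adjusted p = 0.997), and −0.69 without WT 65 and WT 67 (exact permutation p = 0.32). With genotype means removed, the r of Nuggc over the 10 spleens was 0.90 with Mef2b, 0.87 with Mybl1, 0.81 with S1pr2 and 0.69 with Rgs13, which placed it 9th, 13th, 29th and 124th among 13415 other genes. Without WT 65 and WT 67 these were 0.89, 0.93, 0.82 and 0.94 over 8 spleens. Its r was 0.65 with Gcsam, 0.39 with Fas and 0.17 with Bcl6, and 0.44, 0.19 and 0.37 without WT 65 and WT 67. Nuggc does not stand for all other germinal center B cell genes examined. For Neil1 the r over the 10 spleens, with genotype means removed, was 0.66 with Mef2b, 0.26 with Mybl1, 0.54 with S1pr2 and 0.44 with Rgs13. Lmo2, Ezh2 and Ccnd3 were highest in another spleen, as described later.

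**Figure D4:**
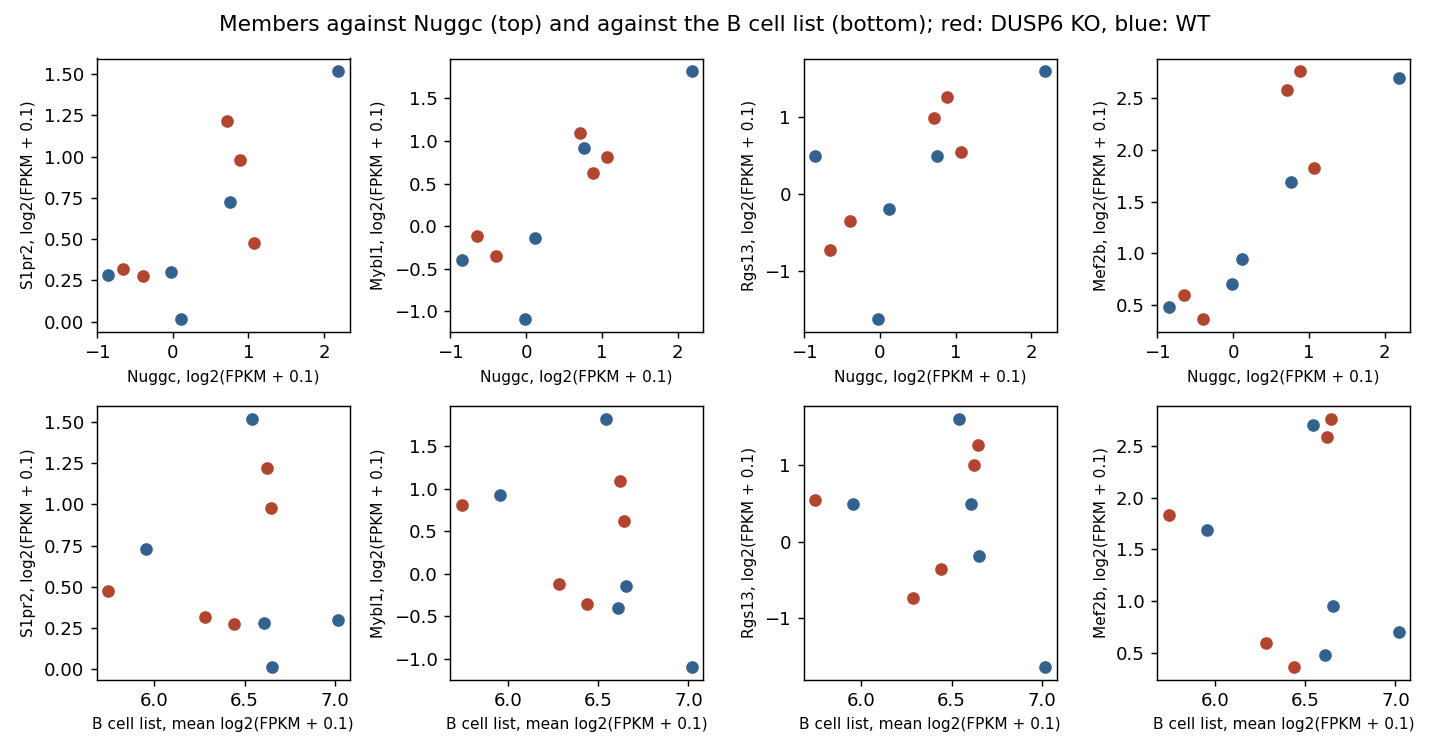
S1pr2, Mybl1, Rgs13 and Mef2b in each spleen against Nuggc (top) and against the mean of 8 B cell genes (bottom), all on the log2(FPKM + 0.1) scale, with DUSP6 KO spleens in red and WT spleens in blue. The values rise with Nuggc in both genotypes, and no such rise is seen along the B cell mean.

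General B cell genes showed no such relation to these 4 members. The mean of 8 B cell genes, Ms4a1 among them, had an r of −0.0014 with S1pr2, −0.11 with Mef2b, −0.25 with Rgs13 and −0.43 with Mybl1 over the 10 spleens, and of 0.73 with Bcl6. These were 0.23, 0.17, 0.17, −0.078 and 0.60 without WT 65 and WT 67. The Bcl6 level also had an r of −0.70 with the mean of 8 cell cycle genes and of −0.64 with that of 7 erythroid genes (−0.58 and −0.52 without WT 65 and WT 67). WT 67, which had the highest B cell mean, had the highest Bcl6 and the lowest Mybl1 and Rgs13. Taken relative to the B cell mean, none of the 7 genes passed a test between genotypes (two-sided exact permutation tests, p between 0.36 for Mef2b and 0.94 for Fas). On that scale the median of all genes tested shifted to 0.20 on the log2 scale, and the differences were 0.53 for Mef2b, 0.40 for Mybl1 and Rgs13, 0.29 for S1pr2, 0.017 for Fas, −0.10 for Bcl6 and −0.22 for Gcsam.

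Mast cell genes were examined because S1pr2 and Rgs13 are also mast cell genes. Mcpt4 and Tpsb2, which encode mast cell proteases, did not overlap between the groups, as was the case for 1.11% of all genes, with 4.54 ± 1.5 FPKM in DUSP6 KO against 0.821 ± 0.407 FPKM in WT for Mcpt4 (SD, n = 5 each, limma adjusted p = 0.061), and 2.14 ± 0.66 and 0.378 ± 0.371 FPKM for Tpsb2 (adjusted p = 0.37). The paper, whose method worked on read counts, lists Mcpt4 among its most significant genes with higher expression in DUSP6 KO. The whole list of 7 had a mean log2 value of −0.087 to 0.72 in DUSP6 KO and of −1.04 to −0.089 in WT, with 5 genes above the minimum for testing and Tpsab1 at 0 in every WT library. Of these 5, Mcpt4 and Tpsb2 had a higher and Cpa3, Kit and Cma1 a lower mean in DUSP6 KO, and the median of the log2 fold changes was −0.056. With WT 65 and WT 67 left out, 3 were higher and the median was 0.21. Kit was at 5.07 to 6.58 FPKM in all 10 spleens, and Cpa3 at 0.608 to 3.21 FPKM. With genotype means removed, the r of S1pr2 was 0.00019 with Kit and 0.43 with Cpa3, and that of Rgs13 was −0.15 and 0.42. These were −0.073, 0.30, −0.33 and 0.42 without WT 65 and WT 67. Of the 7 members, Fas had the highest r with Cpa3, 0.82, and its r with Kit was −0.49 (0.79 and −0.63 without WT 65 and WT 67). The part of mast cells in the levels of S1pr2, Rgs13 and Fas was not tested.

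The genes whose deviations from the genotype means were most like those of each member, among 13415 genes averaging 1 FPKM or more, were Ada, Gm14018 and Mme for S1pr2 (r = 0.95, 0.93 and 0.92), Tspyl1, Gm14018 and Igkv1-99 for Mybl1 (r = 0.95, 0.91 and 0.90), and Ighv1-67, Acyp2 and Gpm6a for Rgs13 (r = 0.91, 0.89 and 0.89). For Mef2b they were Mmp14, Chst1 and Txndc5 (r = 0.97, 0.94 and 0.93). Those nearest to Gcsam were Sdc1, Prdm1 and Nxt2 (r = 0.955, 0.939 and 0.937), of which Sdc1 encodes the plasma cell surface protein syndecan-1 and Prdm1 the plasma cell regulator BLIMP-1. Nearest to Fas were Emb, Kcnk6 and Hemk1 (r = 0.95, 0.93 and 0.92), and nearest to Bcl6 were Wipf2, Idua and Gosr1 (r = 0.97, 0.96 and 0.95). These are the highest of 13415 values for each member, over 10 spleens, and reads of the pseudogene Gm14018 and of the variable genes Igkv1-99 and Ighv1-67 could be shared with near-identical copies.

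**Figure D5:**
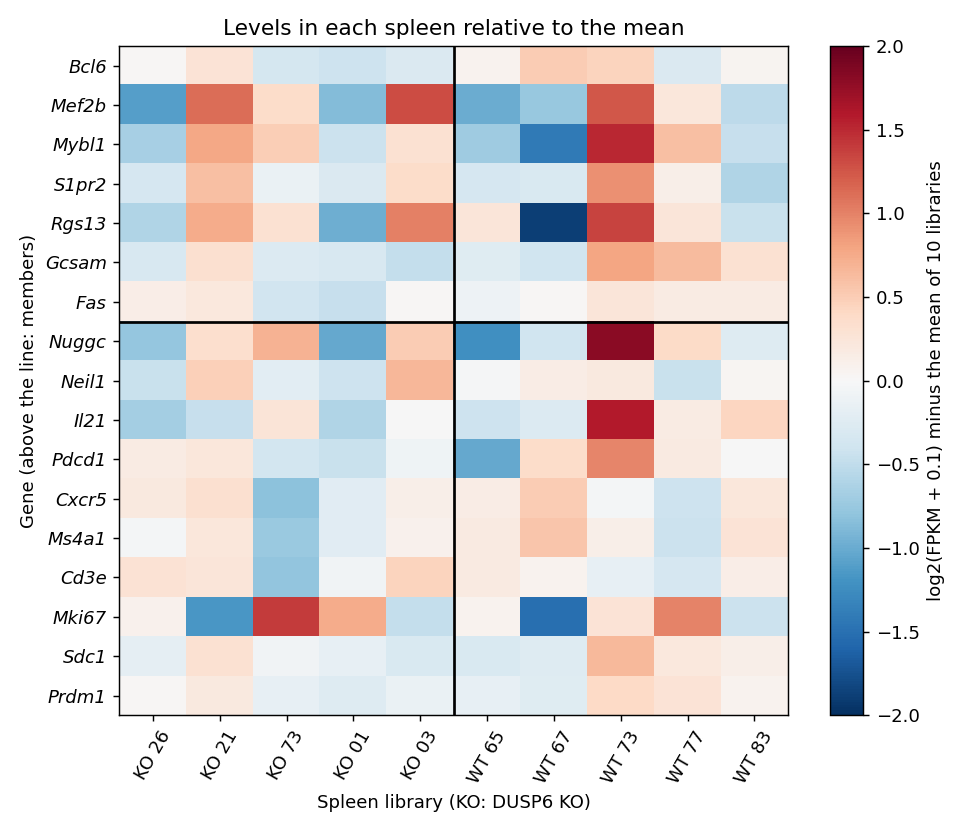
Log2(FPKM + 0.1) of the members (above the horizontal line) and of genes of germinal center B cells, T follicular helper cells, B cells, T cells, dividing cells and plasma cells, relative to the mean of the 10 spleens (DUSP6 KO left, WT right). WT 73, DUSP6 KO 21 and DUSP6 KO 03 are high in Mef2b and Rgs13, and Ms4a1 is lowest in DUSP6 KO 73.

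Other genes of the germinal center reaction were examined in lists by their roles, and 0 genes of these lists had an adjusted limma p of 0.05 or less. Of 12 other germinal center B cell genes, Efnb1, which encodes the ligand ephrin-B1, had an unadjusted p under 0.05, at 6.57 ± 0.94 FPKM in DUSP6 KO against 5.20 ± 0.78 FPKM in WT (SD, n = 5 each, limma adjusted p = 0.79). Of the 12 genes, 7 had a higher mean, and the log2 fold changes had a median of 0.016. Not all of the 12 followed the members from spleen to spleen. Lmo2, Ezh2 and Ccnd3 were highest in DUSP6 KO 73 (143, 17.2 and 53.9 FPKM), which also had the highest means of the cell cycle and erythroid genes. They were low in DUSP6 KO 21 (49.6, 7.59 and 21.2 FPKM). The count and the median therefore do not describe germinal center B cells alone. Among 13 genes of antibody gene diversification, 12 had a higher mean in DUSP6 KO (median of the log2 fold changes 0.046), and 1 reached an unadjusted p under 0.05, the DNA end-joining gene Xrcc5 (log2 fold change 0.21, limma adjusted p = 0.86). Without WT 65 and WT 67, 6 of the 13 were higher and the median was −0.037, and the median of the 12 other germinal center B cell genes was −0.080. Among 10 BCL6 corepressors and repressed targets the median was −0.033 (0.036 without WT 65 and WT 67), and Cdkn1a, which encodes the cell cycle inhibitor p21, had an unadjusted p under 0.05 (3.36 ± 0.43 FPKM in DUSP6 KO, 2.52 ± 0.43 FPKM in WT, limma adjusted p = 0.71). The background share at an unadjusted p under 0.05 was 2.62% of genes for a higher and 3.03% for a lower level in DUSP6 KO.

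Genes that position and confine germinal center B cells and those of the Fas pathway had no gene at an unadjusted p under 0.05, among 11 and 5 genes with median log2 fold changes of −0.030 and −0.051 (0.025 and −0.030 without WT 65 and WT 67). The lowest p-values were those of Cxcl12, the chemokine of the dark zone, and Rhoa, a GTPase downstream of G alpha 13, and in the Fas pathway those of Bid and Cflar. Cxcl12 was at 69.7 ± 15.2 FPKM in DUSP6 KO against 59.7 ± 10.1 FPKM in WT, and Rhoa at 47.4 ± 1.6 and 49.3 ± 2.5 FPKM (limma adjusted p = 0.97 and 0.99, SD, n = 5 each). Bid, which links death receptors to mitochondria, was at 15.4 and 16.1 FPKM, Cflar, an inhibitor of FAS signaling, at 10.2 and 10.5 FPKM (both adjusted p = 0.99), and Fasl, the ligand of FAS, at 1.5 ± 0.33 and 1.68 ± 0.66 FPKM. Of 12 T follicular helper genes, 11 had a lower mean in DUSP6 KO, with a median of −0.19, and 1 had an unadjusted p under 0.05, the cytokine gene Il4, at 0.822 ± 0.249 FPKM in DUSP6 KO against 1.21 ± 0.21 FPKM in WT (log2 fold change −0.54, limma adjusted p = 0.80). Over all genes tested, 51% had a lower mean, and 3.03% reached an unadjusted p under 0.05 with a lower and 2.62% with a higher level. By flow cytometry of spleens the paper found no significant difference in the numbers of T follicular helper cells. With the scale set to the B cell list the T follicular helper median was 0.022. That scale moved the fold changes of all genes alike, and the median over all genes tested was then 0.20. Without WT 65 and WT 67, on the unchanged scale, the T follicular helper median was −0.16 with 10 of 12 lower. Cxcr5, the receptor that guides cells into follicles, was at 44.5 ± 12.4 and 49.4 ± 11.4 FPKM (adjusted p = 0.99). Il21, a cytokine that acts on germinal center B cells, was counted with only 2 to 10 reads per DUSP6 KO library and 4 to 43 per WT library, the highest in WT 73 (log2 fold change −0.60, limma adjusted p = 0.97). Of 7 follicular dendritic cell genes, 6 had a higher mean in DUSP6 KO, with a median of 0.14, and Coch had an unadjusted p under 0.05, at 303 ± 78 FPKM in DUSP6 KO against 227 ± 35 FPKM in WT (limma adjusted p = 0.87). All 8 B cell genes had a lower mean in DUSP6 KO, with a median of −0.21 and 0 genes at an unadjusted p under 0.05, the lowest being those of Fcrla (65.8 and 79.7 FPKM, limma adjusted p = 0.96) and Ms4a1 (66.2 ± 15.5 and 80.0 ± 18.6 FPKM, adjusted p = 0.97). Without WT 65 and WT 67, 4 of the 8 were lower and the median was −0.018, and without DUSP6 KO 73 alone it was −0.053, or −0.082 without WT 67 alone.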

How the data were processed

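Poly-A RNA of 10 spleens, 1 library per mouse, was sequenced as paired-end reads. Per the labels and methods, the authors aligned reads with Hisat2, counted them with featureCounts (1.5.0-p3) and deposited gene values as FPKM. The submitters' processing notes list a human build, but 98.3% of gene coordinates equal those of GENCODE M21, so positions are given on GRCm38. All values were whole reads within 0.001 of a read. Whether counting used strand is not given in the sources used here, so Mef2b, Fas and Bcl6, which overlap other annotated genes, are uncertain there. Fas differs by a few bases from GENCODE M21, and the other 6 members are identical.

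Genotypes were compared with limma 3.58.1 (R 4.3.3, trended variance) on log2(FPKM + 0.1), a scale that understates changes of low genes, for genes averaging 0.1 FPKM or more. Benjamini-Hochberg adjusted p-values were held to 0.05. For single genes, exact permutation tests (two-sided) were run as well. Limma voom on the recovered reads was an alternative, with others given at the end. Correlations used 100000 permutations. Named beside the members are, for each list, genes at an unadjusted p under 0.05 or otherwise those of the lowest p, and the 3 genes most like each member. Some genes covered by this rule are not reported here. The members and lists were chosen with earlier results of these data known. The scripts were tested on simulated data. Replicate libraries differed beyond sampling noise, and each counted as 1 sample.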

Additional observations from a re-analysis of the deposited data

Results flagged for a closer look

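Among the members and the other values examined by group, 2 of 50 groups of 5 spleens held a value far from the other 4, with a gap to its neighbor of more than 0.71 of the group's range. Chance gives such a value in about 1 of 20 groups. Gcsam in DUSP6 KO 21 was at 5.33 FPKM, with the next DUSP6 KO spleen at 3.51 FPKM, a gap of 0.786 of the range. Nuggc in WT 73 was at 4.44 FPKM, with the next WT spleen at 1.59 FPKM, a gap of 0.715 of the range.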

How the results depend on the processing

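No member had an adjusted p of 0.05 or less under any of the 24 alternatives run, and at most 2 had an unadjusted p under 0.05. In 18 of the 24 alternatives no member had an unadjusted p under 0.05, as in the main fit. The share of all genes under that threshold was 5.66% in the main fit and is not given for the alternatives. Over all genes, 8 were higher and 7 lower in DUSP6 KO. There were 4 lower with a minimum mean of 1 FPKM, 13 higher with array weights, 4 lower when centered on the B cell list, and 3 lower when also without WT 65 and WT 67. With each library left out in turn, 6 to 21 were higher and 4 to 13 lower, both highest without DUSP6 KO 21, and 4 lower without WT 83. With array weights the log2 fold changes of S1pr2, Mybl1 and Rgs13 were −0.025, −0.15 and −0.19. Centered on the B cell list, that of Fas was 0.017. Without WT 65 and WT 67, an alternative chosen after seeing the data, those of S1pr2, Mybl1, Rgs13 and Mef2b were −0.10, −0.45, −0.29 and −0.15, and −0.062, −0.42, −0.26 and −0.11 when also centered. Leaving out each library gave −0.056 to 0.32 for S1pr2, −0.14 to 0.59 for Mybl1, −0.26 to 0.55 for Rgs13, 0.039 to 0.67 for Mef2b, −0.27 to −0.099 for Fas, −0.59 to −0.29 for Gcsam and −0.42 to −0.22 for Bcl6. The cause of these changes was not tested. Low read numbers limit Rgs13 most. No paired analysis was possible because the groups share only the mouse number 73.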

Other observations

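Other cell types of the spleen were measured beside the germinal center genes, with 0 genes of these lists at an adjusted limma p of 0.05 or less. Of 8 plasma cell genes, 6 had a lower mean in DUSP6 KO, against 51% of all genes, and the median of the log2 fold changes was −0.16. Against 3.03% of all genes for a lower level, 2 of the 8 reached an unadjusted p under 0.05, both lower in DUSP6 KO. These were Xbp1, a transcription factor of secretory cells, at 47.4 ± 8.2 FPKM in DUSP6 KO against 67 ± 10.3 FPKM in WT (SD, n = 5 each, limma adjusted p = 0.56), and Derl3, a gene of protein degradation at the endoplasmic reticulum, at 6.85 ± 1.18 and 9.40 ± 2.59 FPKM (adjusted p = 0.87). Without WT 65 and WT 67 the median was −0.31, with 7 of 8 lower. Of 5 red pulp macrophage genes, 3 had a higher and 2, Vcam1 and Spic, a lower mean in DUSP6 KO, with a median of 0.057 (0.083 without WT 65 and WT 67, and −0.042 and −0.019 without DUSP6 KO 73 and DUSP6 KO 21). Adgre1, which encodes F4/80, did not overlap between the groups, as was the case for 1.11% of all genes, at 46.8 ± 8.5 FPKM in DUSP6 KO against 35.6 ± 2.2 FPKM in WT (adjusted p = 0.59).

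The 8 cell cycle genes all had a higher mean in DUSP6 KO, the median of the log2 fold changes was 0.23, and none reached an unadjusted p under 0.05, Mki67 being at 95.3 ± 63.6 and 78.0 ± 44.6 FPKM. The lowest p-values were those of Plk1 (31.9 and 25.4 FPKM) and Bub1 (9.01 and 7.31 FPKM, both adjusted p = 0.99). The direction rested on single libraries: the median was −0.098 without WT 65 and WT 67, with 7 of 8 lower, −0.086 without DUSP6 KO 73 and −0.045 without WT 67. The 7 erythroid genes had a median of 0.27, with Hba-a1 at 22673 and 15213 FPKM and Epor at 40.5 and 29.6 FPKM (both adjusted p = 0.99). It was −0.020 without WT 65 and WT 67 and −0.076 without DUSP6 KO 73. The 8 T cell genes had a median of 0.030 (0.098 without WT 65 and WT 67, and −0.082 to 0.17 with each library left out in turn), with Cd8b1 at 37.6 and 32.5 FPKM and Cd28 at 5.53 and 4.95 FPKM (both adjusted p = 0.99). The 6 exocrine pancreas genes had a median of −4.24 and lowest adjusted p-values of 0.94 for Prss2 and Ctrb1, with both high libraries in WT.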
